A study of Mus musculus with 7 samples.

Results

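The genes described here are Cemip and 9 genes of hyaluronan synthesis, breakdown and binding: Tmem2, Has1, Has2, Has3, Hyal1, Hyal2, Cd44, Hapln1 and Hmmr. The set was chosen by the deposited values, because Cemip stood much higher with both cilia guides than with the control guide, and the other 9 genes were listed beside it by function. Cemip against the GFP control is therefore a description with no test, while the other genes were tested. All 10 genes are among the 24047 in the count table; 8 of them passed the filter on low counts, and Has1 and Hapln1 had no read in any library. The filter kept 12875 genes in all.

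RNA was sequenced from SMB21, an adult mouse medulloblastoma line with a Ptch mutant background (strain background Ptch1tm1Mps/J), grown as neurospheres. Loss of Ptch1, the receptor that holds the Hedgehog pathway off, is carried by all groups, the controls included. Each group received a lentiCRISPR vector and was collected 2 weeks after infection: the GFP control carried a guide to GFP (n = 2), the Ofd1 CRISPR group a guide to Ofd1, a centriole and basal body protein (n = 3), and the Kif3a CRISPR group a guide to Kif3a, a motor subunit of kinesin-2 (n = 2). Both proteins are needed to build primary cilia. No label gives the guide sequences or says whether the cells were a clone or a pool. A further GFP replicate, mentioned in the series text, was not analysed here. The labels call the replicates biological.

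Library totals ran from 17961767 to 23022701 counts, and 3 counts, the limit that a count of 0 allows, correspond to 0.130 to 0.167 CPM, a gene's counts scaled to a common library total. Levels below are scaled with edgeR's TMM factors, and fold changes and adjusted p-values come from edgeR's quasi-likelihood test unless another tool is named. Kif3a itself stood at 104 and 104 CPM in the GFP control; the Kif3a CRISPR libraries gave 73.9 and 60.5 CPM (log2 fold change -0.63, adjusted p = 0.000854). Ofd1 itself stood at 22.6 and 23.2 CPM in the GFP control, and the Ofd1 CRISPR replicates gave 20.99, 20.03 and 22.0 CPM (log2 fold change -0.12, adjusted p = 0.398), so its RNA level gives no check of editing. With Kif3a CRISPR, Ofd1 was called higher than in the GFP control, at 31.7 and 29.0 CPM (log2 fold change 0.41, adjusted p = 0.0126). Ofd1 CRISPR against Kif3a CRISPR gave -0.53 for Ofd1 (adjusted p = 0.0399). All 7 granule neuron progenitor and Hedgehog medulloblastoma markers looked at (Atoh1, Zic1, Zic2, Barhl1, Pax6, Neurod1 and Gli1) averaged 1 CPM or more, with summed levels of 2579 to 3202 CPM. They did not move together: Atoh1, Barhl1 and Pax6 were called higher with both guides (1.43-fold to 1.96-fold), Gli1, a Hedgehog target, was called lower with both (0.559-fold and 0.565-fold, adjusted p = 0.0258 and 0.0349), and Zic1, Zic2 and Neurod1 passed with neither. The summed level of 14 microglia and macrophage markers was 32.1 CPM in GFP control replicate 1 and 2.96 to 4.88 CPM in the other 6 libraries, so values without that library are given where a result turns on it. In bulk RNA, fewer cells of a type and less RNA per cell cannot be told apart.

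Hyaluronan is a long unsulfated sugar chain of the extracellular matrix. It is spun out at the plasma membrane by the synthases Has1, Has2 and Has3 and cut into fragments by hyaluronidases, and Cemip is a secreted or membrane-associated protein required for hyaluronan breakdown in several cell types. Tmem2, now named Cemip2, is its membrane-bound relative. Cells hold hyaluronan through the receptor Cd44, and link proteins such as Hapln1 fix it to proteoglycans in the brain matrix, where it is a main component.

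The set was assembled around Cemip, so the sequence just before its start is shown. The 250 bases that precede the RefSeq start of Cemip lie on the minus strand of GRCm38.p6 at chr7:84086506-84086755. They are printed 5′ to 3′ in the direction of the gene, with the only match to the TATA-box letters TATAAA in capitals.
Cemip promoter: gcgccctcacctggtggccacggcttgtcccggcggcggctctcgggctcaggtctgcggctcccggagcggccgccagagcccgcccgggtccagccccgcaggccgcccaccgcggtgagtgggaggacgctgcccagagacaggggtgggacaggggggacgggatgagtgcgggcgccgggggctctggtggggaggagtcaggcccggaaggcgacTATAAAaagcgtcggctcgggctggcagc
The stretch is 75.2% G and C, and the match begins 29 bases before the start. Of the 10 genes, 7 had a promoter in the RefSeq table, of 300 bases each. TATAAA, on either strand, was in 13.6% of all 32851 promoters and, within the set, in that of Cemip alone; this motif was added after the sequence was seen. The other motifs searched on both strands were GACCACCCA, the letters bound by Gli factors, in 0.253% of all promoters and in none of the 7; TGANTCA, the AP-1 letters, in 7.81% and in none of the 7; and ACGTG, the core of the hypoxia response element, in 19.6% and in 1 of the 7, that of Cd44. A match is a description of these letters and not of binding.

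Cemip stood at 1.03 and 0.852 CPM in the GFP control, from 21 and 17 reads. It stood at 7.69, 5.79 and 4.63 CPM in the 3 cultures with the Ofd1 guide, from 156, 104 and 90 reads, and the Kif3a CRISPR cultures gave 9.16 and 6.63 CPM, from 212 and 123 reads. All 5 edited libraries lay above both controls, and the lowest of them was 4.48 times the higher control. The 95% Poisson intervals, which cover counting error only, reached at most 1.58 and 1.36 CPM in the controls. In the edited libraries they reached down to 3.72 CPM at the lowest. These intervals leave out the spread between cultures, and Cemip was chosen by this same gap, so they are no test of it. The group means were 0.942 ± 0.127 CPM (SD, n = 2), 6.03 ± 1.55 CPM (SD, n = 3) and 7.89 ± 1.79 CPM (SD, n = 2). The log2 fold change against the GFP control was 2.67 (SE 0.297, 6.38-fold) for Ofd1 CRISPR and 3.07 (SE 0.304, 8.37-fold) for Kif3a CRISPR. Among the 12875 genes, Cemip took rank 12 of the rises with Ofd1 CRISPR and rank 9 with Kif3a CRISPR. Both comparisons share the 2 control libraries. Without GFP control replicate 1, the library with the raised macrophage markers, the log2 fold changes were 2.82 and 3.21.

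Replicates of a group differed less in Cemip than the edited libraries differed from the controls, the gap by which Cemip was chosen. The highest Cemip level was 1.66 times the lowest within Ofd1 CRISPR, 1.38 times within Kif3a CRISPR and 1.21 times within the GFP control. The choice of Cemip did not use the difference between the guides, which could therefore be tested: Ofd1 CRISPR against Kif3a CRISPR gave a log2 fold change of -0.39 (SE 0.213, adjusted p = 0.589), and the groups overlapped. This does not show that the guides act alike, since the SE leaves room for a larger difference as well as for none. Over all alternatives the estimate ran from -0.61 to -0.14, a range from refits of the same libraries that does not measure its uncertainty. Fibroblast markers, 8 genes, summed to 2.75 to 2.76 CPM in the GFP control, 1.58 to 2.34 CPM with Ofd1 CRISPR and 1.21 to 1.62 CPM with Kif3a CRISPR. Only Thy1, which neurons also express, averaged 1 CPM or more, and it supplied most of the sum in the controls, at 2.02 and 1.55 CPM. Of the listed collagens, Col1a1 had 10 and 17 reads in the controls and 7 to 13 reads in each edited library. Col1a2 and Col3a1 had 0 reads in the controls and 0 to 2 reads in each edited library. The part of such cells in the Cemip level was not tested. Endothelial markers summed to 1.92 to 2.16, 0.986 to 1.56 and 0.518 to 0.701 CPM, with Cldn5 at 0 in all libraries.

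**Figure D1:**
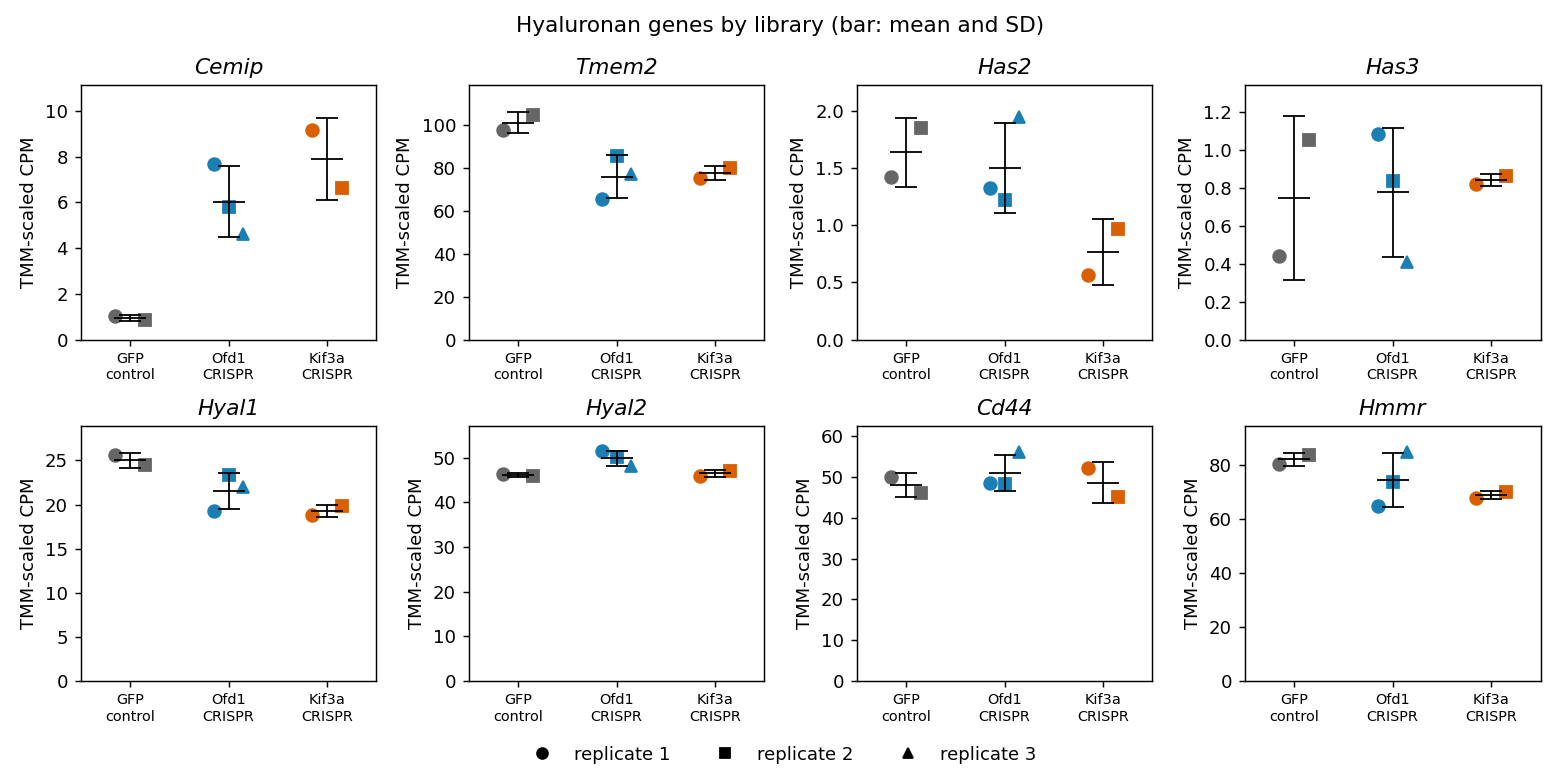
Levels of the tested genes in each of the 7 libraries, in TMM-scaled CPM on axes that start at 0; each point is 1 library, and the bars are the group mean and SD. Cemip, chosen for its rise, lies between 4.63 and 9.16 CPM in the 5 edited libraries and at 1.03 and 0.852 CPM in the controls.

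Tmem2, the membrane relative of Cemip, fell with both guides. Its level was 97.8 and 104.6 CPM in the GFP control, 65.4, 85.5 and 77.4 CPM with Ofd1 CRISPR, and 75.4 and 80.0 CPM with Kif3a CRISPR. Every edited library lay below both controls, and the edited groups overlapped each other. The log2 fold change was -0.41 (SE 0.0977, 0.752-fold, adjusted p = 0.0163) for Ofd1 CRISPR and -0.38 (SE 0.108, 0.768-fold, adjusted p = 0.0279) for Kif3a CRISPR. The calls rest on few libraries. Over all alternatives the adjusted p of Tmem2 ran from 0.00129 to 0.136 for Ofd1 CRISPR, where leaving out GFP control replicate 1 (0.0631) or replicate 2 (0.136) ended the call. It ran from 0.00169 to 0.216 for Kif3a CRISPR, where leaving out any one library of either compared group did so (0.0807 and 0.158 for the GFP control replicates, 0.216 and 0.0878 for the Kif3a CRISPR replicates). Ofd1 CRISPR against Kif3a CRISPR gave -0.03 on the log2 scale (adjusted p = 0.948). With Cemip higher and Tmem2 lower, the share of Cemip in the reads of both genes went from 1.04% and 0.808% in the controls to 10.5%, 6.34% and 5.64% with Ofd1 CRISPR and to 10.8% and 7.65% with Kif3a CRISPR. Tmem2 still held most of these reads in every library.

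Among the synthases, Has1 had no read in any library, which allows up to 0.130 to 0.167 CPM per library. Has2, the main synthase in many embryonic and mesenchymal cells, was low: 1.43 and 1.85 CPM in the GFP control, 1.33, 1.22 and 1.95 CPM with Ofd1 CRISPR, and 0.562 and 0.970 CPM with Kif3a CRISPR. Both Kif3a CRISPR libraries lay below all 5 others. The log2 fold change against the GFP control was -1.12 (SE 0.377, adjusted p = 0.0556) for Kif3a CRISPR and -0.12 (SE 0.311, adjusted p = 0.827) for Ofd1 CRISPR, neither past the threshold of 0.05. The Kif3a CRISPR value rests on 13 and 18 reads against 29 and 37. Its adjusted p ran from 0.0283 to 0.377 over the alternatives and passed in the fit of these 2 groups alone (0.0364) and when Ofd1 CRISPR replicate 1 (0.0456) or replicate 3 (0.0457) was left out. Tested directly, Ofd1 CRISPR against Kif3a CRISPR gave a Has2 log2 fold change of 1.00 (SE 0.355, unadjusted p = 0.0158 and adjusted p = 0.420 by edgeR).

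Has3, which makes shorter hyaluronan chains, stood at 0.442 and 1.05 CPM in the GFP control, 1.08, 0.835 and 0.411 CPM with Ofd1 CRISPR, and 0.821 and 0.863 CPM with Kif3a CRISPR. The 3 groups overlapped, with 8 to 22 reads per library, and the log2 fold changes of 0.06 (SE 0.466, adjusted p = 0.944) and 0.17 (SE 0.498, adjusted p = 0.840) were smaller than their errors. The 3 synthases together came to 1.87 and 2.91 CPM in the controls, 2.42, 2.06 and 2.36 CPM with Ofd1 CRISPR, and 1.38 and 1.83 CPM with Kif3a CRISPR. The exons of Has2 share 4.3% of their bases with the antisense gene Has2os, and those of Has3 share 5.52% with Chtf8 on the other strand; with no strand setting given for the counting, reads there cannot be assigned.

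Hyal1, which degrades hyaluronan in lysosomes, stood at 25.7 and 24.5 CPM in the GFP control, 19.3, 23.3 and 22.0 CPM with Ofd1 CRISPR, and 18.8 and 19.8 CPM with Kif3a CRISPR. All edited libraries lay below both controls. It fell with Kif3a CRISPR (log2 fold change -0.38, SE 0.112, adjusted p = 0.0339) and gave -0.22 with Ofd1 CRISPR (SE 0.101, adjusted p = 0.164). The Kif3a CRISPR call ended when any one library of the compared groups was left out, with an adjusted p of 0.191 and 0.102 without the GFP control replicates 1 and 2 and 0.203 and 0.0825 without the Kif3a CRISPR replicates 1 and 2, within a range of 0.0105 to 0.203 over all alternatives. Of the Hyal1 exon bases in GENCODE M21, 50.8% are shared on the same strand with the neighbour Naa80, listed in the table as Nat6, so the split of reads between these genes is uncertain. Hyal2, a hyaluronidase anchored at the cell surface, stood at 46.4 and 45.9 CPM in the GFP control, 51.5, 50.1 and 48.1 CPM with Ofd1 CRISPR, and 46.0 and 47.1 CPM with Kif3a CRISPR. All Ofd1 CRISPR libraries lay above both controls for Hyal2, and the Kif3a CRISPR libraries overlapped the controls. Its log2 fold changes were 0.11 (adjusted p = 0.299) and 0.01 (adjusted p = 0.928), so neither passed. With so few libraries in a group, separation of the libraries alone was not taken as a change.

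Cd44, the main hyaluronan receptor, stood at 50.1 and 46.1 CPM in the GFP control, 48.6, 48.3 and 56.2 CPM with Ofd1 CRISPR, and 52.2 and 45.1 CPM with Kif3a CRISPR. The groups overlapped, and the log2 fold changes were 0.09 (SE 0.0937, adjusted p = 0.577) and 0.02 (SE 0.102, adjusted p = 0.918). Macrophages also express Cd44. GFP control replicate 1, the library with 32.1 CPM of their markers, stood at 50.1 CPM, and the part of such cells in the Cd44 level was not tested. Hapln1, the link protein that ties hyaluronan to proteoglycans, had no read in any library, which allows up to 0.130 to 0.167 CPM.

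Hmmr, also called RHAMM, binds hyaluronan at the cell surface and the mitotic spindle inside the cell. It stood at 80.5 and 83.9 CPM in the GFP control, 64.8, 73.8 and 84.9 CPM with Ofd1 CRISPR, and 67.9 and 70.1 CPM with Kif3a CRISPR. The Kif3a CRISPR libraries lay below both controls, and the Ofd1 CRISPR libraries spread across them. Neither log2 fold change passed, at -0.25 (SE 0.107, adjusted p = 0.120) for Kif3a CRISPR and -0.14 (SE 0.0974, adjusted p = 0.351) for Ofd1 CRISPR. The fit and single libraries matter here: for Kif3a CRISPR the adjusted p of Hmmr was 0.0154 in the fit of the 2 groups alone, 0.0404 with Ofd1 CRISPR replicate 1 left out and 0.0411 with replicate 3 left out, and for Ofd1 CRISPR it was 0.0463 without its replicate 3. Over all alternatives it ran from 0.0154 to 0.391 for Kif3a CRISPR and from 0.0191 to 0.768 for Ofd1 CRISPR. Because Hmmr is a mitotic gene, 19 other mitotic genes were counted beside it. With Kif3a CRISPR, 5 were called lower (Aurka, Aurkb, Bub1, Top2a and Prc1), 1 higher (Cenpf) and 13 in neither direction, with a median log2 fold change of -0.11; of all tested genes, 10.9% were called lower and 9.19% higher. With Ofd1 CRISPR, Top2a was called lower and Cenpf higher, and 17 passed in neither direction, with a median of 0.00105; of all tested genes, 8.09% were called lower and 6.79% higher.

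Counted over the set with Cemip left out, 7 genes were tested against the GFP control. With Ofd1 CRISPR, 1 was called lower (Tmem2) and 0 higher, where 8.09% of all tested genes were called lower and 6.79% higher; edgeR's unadjusted p was under 0.05 for the same 1 lower and 0 higher, and DESeq2 called 1 lower and 0 higher. With Kif3a CRISPR, 2 were called lower (Tmem2 and Hyal1) and 0 higher, where 10.9% of all tested genes were called lower and 9.19% higher; edgeR's unadjusted p was under 0.05 for 4 lower and 0 higher, and DESeq2 called 2 lower and 0 higher. The median log2 fold change of the 7 genes was -0.12 and -0.25, beside 0.00282 and 0.00798 over all tested genes. Between Ofd1 CRISPR and Kif3a CRISPR, 0 of 8 genes were called by edgeR and 0 by DESeq2, which gave no adjusted p for 1 of them, where 0.179% of all tested genes were called, and Has2 was the only one with an unadjusted p under 0.05. With counts this small, the shares of the set cannot be set apart from those of all genes.

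**Figure D2:**
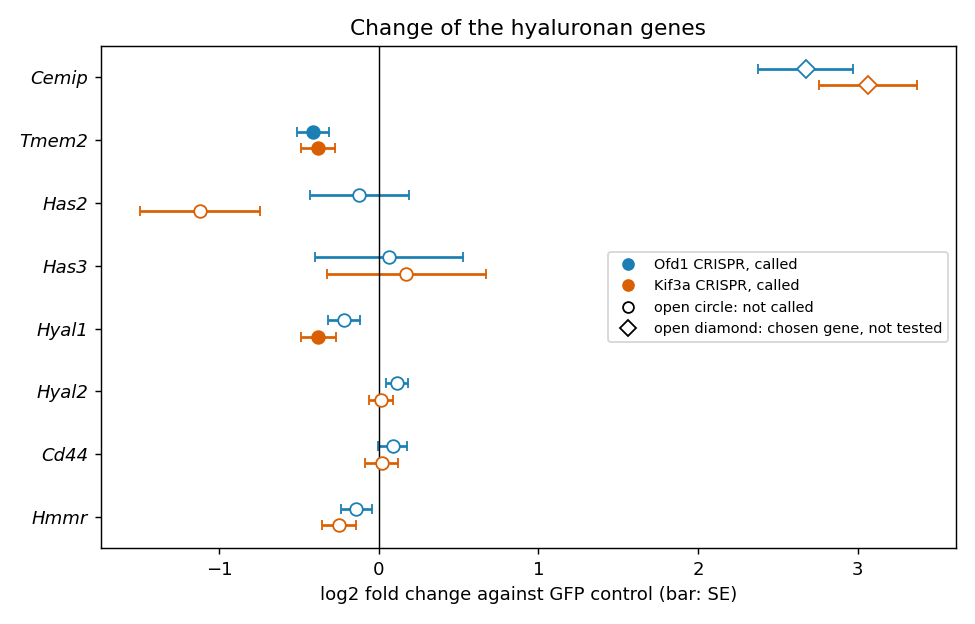
Log2 fold change of each tested gene against the GFP control for Ofd1 CRISPR and Kif3a CRISPR, with bars of 1 SE from edgeR; filled circles passed the test, and the diamonds of Cemip were not tested. Cemip stands at 2.67 and 3.07, Tmem2 at -0.41 and -0.38, and Has2 at -0.12 and -1.12.

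Levels of different genes were compared per kilobase of the longest protein-coding GENCODE M21 transcript. In the GFP control, Hmmr was highest at 21.1 ± 0.614 CPM per kb, then Hyal2 at 15.5 ± 0.129, Tmem2 at 15.2 ± 0.721, Cd44 at 8.57 ± 0.514 and Hyal1 at 8.31 ± 0.282, and far below them Has2 at 0.387 ± 0.0716, Cemip at 0.133 ± 0.0179 and Has3 at 0.126 ± 0.0729 (SD, n = 2). Hyal2 and Tmem2, Cd44 and Hyal1, and Cemip and Has3 did not differ beyond their spread. Cemip was thus among the lowest of the expressed genes in the controls, and it remained well below Tmem2 in the edited groups, at 0.849 ± 0.217 (SD, n = 3) against 11.4 ± 1.51 CPM per kb with Ofd1 CRISPR and 1.11 ± 0.251 (SD, n = 2) against 11.7 ± 0.486 with Kif3a CRISPR. Per kilobase, Tmem2 exceeded Cemip by 101.1 and 131 times in the controls, by 9.07, 15.8 and 17.9 times with Ofd1 CRISPR, and by 8.78 and 12.9 times with Kif3a CRISPR. Against Has2 the order turned: the ratio of Cemip to Has2 per kilobase was 0.432 and 0.274 in the controls, 3.44, 2.82 and 1.41 with Ofd1 CRISPR, and 9.72 and 4.07 with Kif3a CRISPR. With the median transcript length in place of the longest, Hyal2 (26.9 CPM per kb), Cd44 (19.9) and Hyal1 (12.4) moved up in the controls, so the order among the abundant genes depends on the transcript used.

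**Figure D3:**
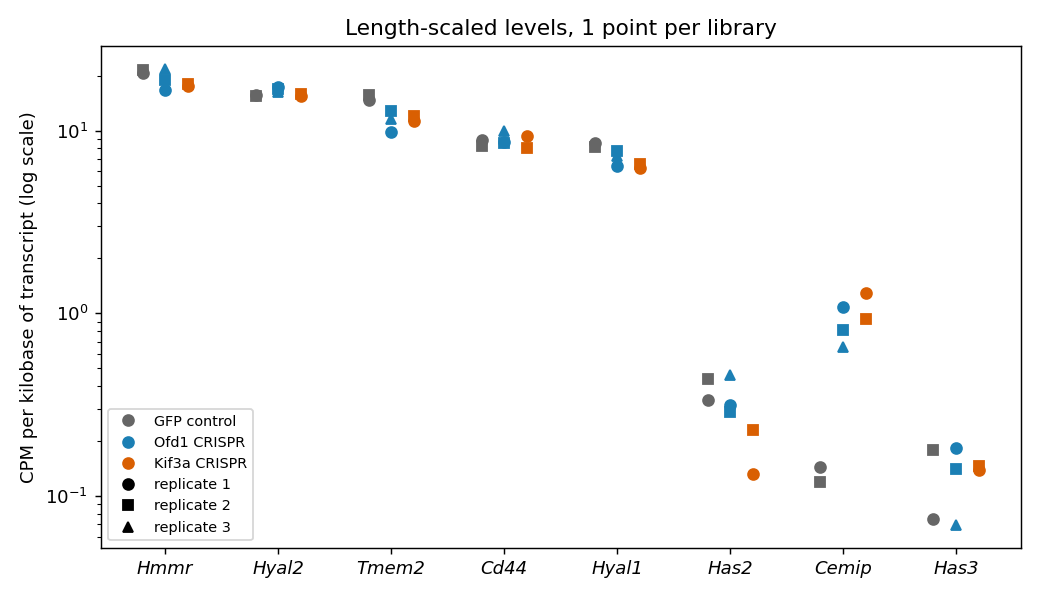
Level per kilobase of transcript of each tested gene, in CPM per kb on a log axis, with 1 point per library, coloured by group. The group mean of Cemip goes from 0.133 in the GFP control to 0.849 and 1.11 in the edited groups, above Has2 but below Hyal1, Cd44, Tmem2, Hyal2 and Hmmr.

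The wider hyaluronan pathway was described with 44 other genes listed by role, of which 25 passed the filter on low counts and 7 had no read in any library. With Ofd1 CRISPR, 1 of the 25 was called higher, 3 lower and 21 in neither direction, with a median log2 fold change of -0.11. With Kif3a CRISPR, 1 was called higher, 6 lower and 18 in neither direction, with a median of -0.08. These counts stand beside the same percentages of all tested genes given above, 6.79% higher and 8.09% lower for Ofd1 CRISPR and 9.19% and 10.9% for Kif3a CRISPR.

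Of the 7 genes that make the nucleotide sugars used by the synthases, 1 was called lower with each guide. Ugp2, which makes UDP-glucose, fell with Ofd1 CRISPR (log2 fold change -0.34, adjusted p = 0.0389) and gave -0.24 with Kif3a CRISPR (adjusted p = 0.144). The Ugp2 call ended when any one of 6 libraries was left out, with adjusted p of 0.238 and 0.132 without the GFP control replicates, 0.0883 and 0.118 without the Ofd1 CRISPR replicates 1 and 2, and 0.0660 and 0.0657 without the Kif3a CRISPR replicates. It also ended with library totals alone (0.0575) and in the fit of the 2 groups alone (0.0539), within a range of 0.000615 to 0.238. With Kif3a CRISPR, Ugp2 passed in the fit of the 2 groups alone (0.0387) and without Ofd1 CRISPR replicate 3 (0.0480), within a range of 0.0286 to 0.443. Uap1, which makes UDP-N-acetylglucosamine, fell with Kif3a CRISPR (log2 fold change -0.32, adjusted p = 0.00686) and gave -0.16 with Ofd1 CRISPR (adjusted p = 0.106). Its Kif3a CRISPR call ended without GFP control replicate 1 (0.0854) or Kif3a CRISPR replicate 1 (0.0618), within a range of 0.00150 to 0.0854.

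Among 8 other degrading enzymes, Hyal4, Hyal5, Hyal6 and Spam1 had no read, and 4 were tested. Hexa, a subunit of a lysosomal hexosaminidase that trims hyaluronan fragments, was called lower with Kif3a CRISPR. It stood at 83.2 and 80.4 CPM in the GFP control and at 64.8 and 67.1 CPM with Kif3a CRISPR (log2 fold change -0.31, adjusted p = 0.0165), and the groups did not overlap. With Ofd1 CRISPR the value was -0.23 (adjusted p = 0.0514). The Kif3a CRISPR call of Hexa ended when any one library of the compared groups was left out, with adjusted p of 0.0528 to 0.140. With Ofd1 CRISPR, Hexa passed when its replicate 3 was left out (0.0398) and with RLE factors (0.0475).

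Of the 7 link proteins and proteoglycans of the brain matrix, 4 were tested. With Ofd1 CRISPR 2 were called lower and 0 higher, and with Kif3a CRISPR 1 lower and 0 higher. Ncan and Vcan passed with neither guide. Their log2 fold changes were 0.07 and -0.12 with Ofd1 CRISPR, and -0.08 and 0.14 with Kif3a CRISPR. The steadiest call of the list was that of Hapln4 with Kif3a CRISPR. Hapln4, a link protein of brain matrix, stood at 49.1 and 48.3 CPM in the GFP control, 40.6, 41.2 and 40.0 CPM with Ofd1 CRISPR, and 34.1 and 35.1 CPM with Kif3a CRISPR. The 3 groups did not overlap. The log2 fold change of Hapln4 was -0.49 with Kif3a CRISPR (SE 0.0768, adjusted p = 0.00113, at most 0.0267 over the alternatives) and -0.26 with Ofd1 CRISPR (SE 0.0693, adjusted p = 0.0264). The Ofd1 CRISPR call ended with either GFP control library left out (0.206 and 0.169) or either of the Ofd1 CRISPR replicates 1 and 2 (0.0551 and 0.0552). Bcan, or brevican, a proteoglycan made by astrocytes and oligodendrocyte precursors, stood at 115.3 and 132.8 CPM in the GFP control, 72.1, 102.8 and 82.9 CPM with Ofd1 CRISPR, and 83.6 and 117.2 CPM with Kif3a CRISPR. It fell with Ofd1 CRISPR by edgeR (log2 fold change -0.53, adjusted p = 0.0345), not by DESeq2 (0.114), and gave -0.31 with Kif3a CRISPR (adjusted p = 0.212). The edgeR call of Bcan ended without either GFP control replicate (0.0720 and 0.221) or Ofd1 CRISPR replicate 1 (0.0746) or 3 (0.0651), within a range of 0.000272 to 0.221. Oligodendrocyte lineage markers summed to 298 to 314 CPM in the controls, 127 to 209.8 CPM with Ofd1 CRISPR and 126 to 164 CPM with Kif3a CRISPR, with Mog and Sox10 at 0, and astrocyte markers to 240.6 to 243.2, 206.8 to 353.2 and 229 to 272 CPM, with Aqp4 at 0; their part in the Bcan and Hapln4 values was not tested.

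Of the 10 matrix partners of these proteoglycans, 2 were tested, and neither passed with either guide: Tnc, or tenascin C, gave -0.15 and -0.29 on the log2 scale (adjusted p = 0.594 and 0.291), and Itih3, whose family attaches covalently to hyaluronan, 0.40 and 0.42 (adjusted p = 0.250 and 0.239). Both were named after their values were seen. Among 8 other receptors and binding proteins, 4 were tested. Layn, a membrane lectin that binds hyaluronan, fell with Kif3a CRISPR from 17.4 and 16.8 to 11.0 and 11.5 CPM (log2 fold change -0.60, adjusted p = 0.0353) and gave -0.38 with Ofd1 CRISPR (adjusted p = 0.139), where replicate 3 stood at 16.9 CPM beside 11.0 and 11.5 CPM. The Layn call ended when any one library of the compared groups was left out, with adjusted p of 0.101 to 0.218. Without Ofd1 CRISPR replicate 3, Layn passed with Ofd1 CRISPR too (log2 fold change -0.60, adjusted p = 0.00573).

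All 4 listed cytoskeletal linkers that bind the tail of Cd44 were tested. With Ofd1 CRISPR 1 was called higher and 3 in neither direction. With Kif3a CRISPR 1 was called higher, 1 lower and 2 in neither direction. Ezr, or ezrin, rose with both guides, from 419 and 395 CPM in the GFP control to 498.5, 495 and 479.6 CPM with Ofd1 CRISPR and 524 and 488 CPM with Kif3a CRISPR. The log2 fold change was 0.27 (SE 0.0669, adjusted p = 0.0200) and 0.31 (SE 0.0728, adjusted p = 0.0111). For Ofd1 CRISPR the Ezr call ended with GFP control replicate 1 (0.0981) or 2 (0.217) left out, or Ofd1 CRISPR replicate 2 (0.0530). For Kif3a CRISPR it ended with GFP control replicate 1 (0.0560) or 2 (0.123) left out, or Kif3a CRISPR replicate 1 (0.0965). Msn, or moesin, fell with Kif3a CRISPR (log2 fold change -0.27, adjusted p = 0.0284) and gave -0.16 with Ofd1 CRISPR (adjusted p = 0.139). The Msn call ended when any one library of the compared groups was left out, with adjusted p of 0.0753 to 0.240. Between the 2 edited groups, 0 of the 25 pathway genes were called by edgeR and 0 by DESeq2, which gave no adjusted p for 2 of them, and Uap1, Hapln4 and Tlr2 had an unadjusted p under 0.05.

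**Figure D4:**
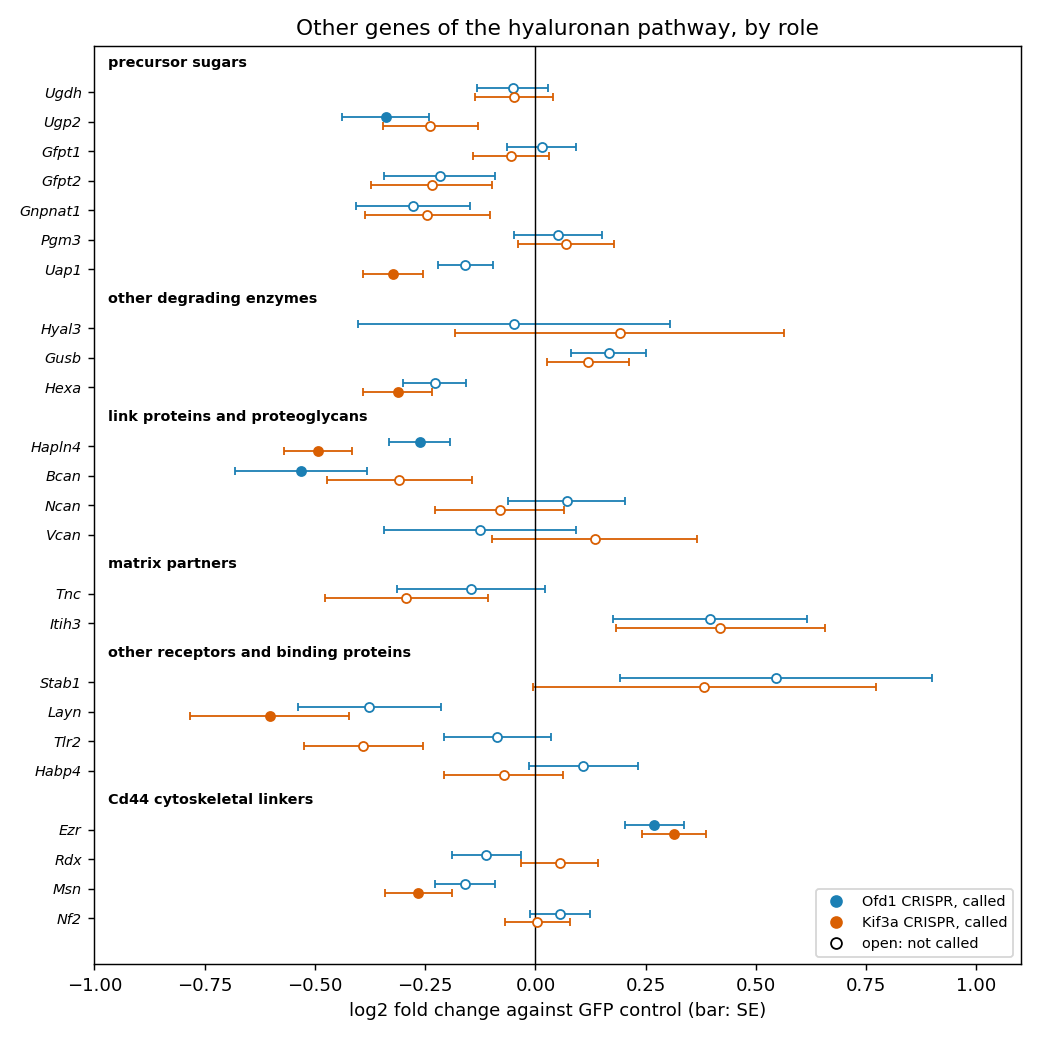
Log2 fold change against the GFP control of the tested pathway genes beside the set, all but 1 of them shown, ordered by role, for both guides, with bars of 1 SE from edgeR; filled circles passed the test. Hapln4 lies at -0.26 and -0.49 and Ezr at 0.27 and 0.31.

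The genes with a pattern most like that of Cemip were ranked by Pearson's r over the 7 libraries, on log2 CPM with a prior count of 2, among the 11457 tested genes that averaged 2 CPM or more. The 5 highest were Atp2b4, a calcium pump of the plasma membrane, Gpc4, a glypican, Slc39a11, a metal ion transporter, Rassf4 and Pcsk5, a proprotein convertase, with r of 0.996 to 0.998. Atp2b4 stood at 17.9 to 19.2 CPM in the controls, 37.8 to 52.5 CPM with Ofd1 CRISPR and 44.5 to 53.4 CPM with Kif3a CRISPR. The 5 lowest were Sphk1, a sphingosine kinase, Otub2, a deubiquitinase, Tmem194, Rims3 and Qsox2, with r of -0.998 to -0.996, and Sphk1 stood at 12.6 to 14.6, 5.27 to 7.09 and 4.92 to 5.77 CPM. The points share their libraries and the split between control and edited libraries, and r was above 0.95 for 369 genes and below -0.95 for 314, so such a value is common here. Within the set, r with Cemip was -0.889 for Tmem2, -0.869 for Hyal1, -0.751 for Hmmr, -0.602 for Has2, 0.197 for Cd44, 0.228 for Has3 and 0.499 for Hyal2, as a description over 7 libraries.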

How the data were processed

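The deposited table holds raw counts per gene symbol, as whole numbers with no normalization by the authors. The submitters' processing notes list STAR, DESeq2 and mm9, without roles. The read counter, annotation and strand setting were not given in the sources used here, and genes with overlapping or near-identical copies are uncertain. Libraries were stranded mRNA preparations, sequenced from one end together, per the labels' protocols. Reads carry no molecular identifiers, so intervals and limits from counts cover counting error only.

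Genes kept by filterByExpr (12875) were fitted with edgeR 4.0.16 (R 4.3.3, limma 3.58.1): TMM factors, a mean per group over all 7 libraries, 4 residual degrees of freedom, a quasi-likelihood F test, Benjamini-Hochberg adjustment over all tested genes and a threshold of 0.05, two-sided. The common biological coefficient of variation was 7.43%. SEs were derived from the F statistic. The fit was also run on simulated counts that gave every gene the same spread and changed only better expressed genes. That run does not cover genes as low as Has2 and Has3, or a library that departs from its group. Alternatives were RLE factors, library totals alone, DESeq2 1.42.0, no filter on low counts, a replicate block, only the 2 groups compared, leaving out each library, median transcript length and a prior count of 0.5. Lengths came from GENCODE M21 and promoters from RefSeq, both GRCm38; no read coordinates were used.

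Named genes are the 10 of the set, every listed pathway gene called in any comparison but 1, and the 5 highest and 5 lowest by r with Cemip. Some pathway genes that were not called, and mitotic and marker genes, were named beside them. The members and lists were chosen with earlier results of these data known. The values of 1 listed pathway gene are not reported here, though it is included in the counts.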

Additional observations from a re-analysis of the deposited data

How the results depend on the processing

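No called result changed direction. Cemip ran from 2.46 to 2.83 on the log2 scale with Ofd1 CRISPR and from 2.81 to 3.27 with Kif3a CRISPR over all 13 alternatives. Of the tested set, 1 gene was called lower with Ofd1 CRISPR and 2 with Kif3a CRISPR, and of the other pathway genes 3 and 6; the fit of only the 2 groups compared gave 4 set genes lower with Kif3a CRISPR. Leaving out 1 library at a time gave 0 to 2 and 0 to 4 set genes lower, 0 to 7 and 1 to 7 pathway genes lower, and 0 to 1 pathway genes higher with either guide. Each of these lowest counts was reached without GFP control replicate 1, and some also without another library. Over all genes, the counts with Ofd1 CRISPR went from 874 higher and 1041 lower to 286 and 378 without GFP control replicate 1 and to 270 and 546 without replicate 2. With Kif3a CRISPR they went from 1183 and 1401 to 430 and 670, to 466 and 896, and to 281 and 405 without Kif3a CRISPR replicate 1. Between the edited groups, 22 genes higher and 1 lower became 101 and 6 with DESeq2 and 75 and 5 with no filter, and 44 and 6 with Ofd1 CRISPR replicate 1 left out. Leaving out Kif3a CRISPR replicate 2 gave 12 and 0 by edgeR, and leaving out Kif3a CRISPR replicate 1 gave 0 and 0. Has2, Has3 and Cemip in the controls rest on 9 to 37 reads a library, which limits their precision.

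The replicate numbers were not taken to pair the samples, because no label ties them and not every same-numbered pair deviated together. The correlation of deviations from the group means was 0.217 and 0.311 between GFP control and Ofd1 CRISPR, 0.328 and 0.263 between Ofd1 and Kif3a CRISPR, and 0.0244 between GFP control and Kif3a CRISPR. With a replicate block, 2 and 4 set genes and 8 and 9 pathway genes were lower with Ofd1 CRISPR and Kif3a CRISPR, 1620 genes were higher and 1876 lower with Ofd1 CRISPR, and 124 and 67 differed between the edited groups. Under the block Hmmr passed with both guides (adjusted p = 0.0191 and 0.0169), Layn (0.00230) and Hexa (0.0238) with Ofd1 CRISPR, and Has2 (0.0283), Ugp2 (0.0286) and Bcan (0.00755) with Kif3a CRISPR. Only Ofd1 CRISPR had a replicate 3, so under the block that library no longer informed the Ofd1 CRISPR estimates. These were close to the estimates with replicate 3 left out, as for Hmmr (log2 fold change -0.249 and -0.247). The new Ofd1 CRISPR calls therefore cannot be credited to pairing.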
